A study of Caenorhabditis elegans with 54 samples.

Results

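The libraries described here came from 2 Caenorhabditis elegans strains that each carry 1 deletion in an otherwise mut-16-intact background, and they were chosen by sample title: 12 of the 54 samples of the series. One strain carries sosi-1{delta}(cmp262) I and the other carries eri-6[e-f]{delta}(cmp261) I, both on chromosome I. Each strain had 3 small RNA libraries and 3 mRNA libraries, which were analysed separately. Levels are also given for the strain that carries both deletions (cmp263), with 3 libraries per assay. Synchronized animals were grown at 20 °C and collected as day 1 adults after about 64 h, and each sample held 8000 whole animals. RNAs of 18 to 30 nt were cut from a gel for the small RNA libraries, and mRNA was selected on oligo(dT) beads. No wild-type library was analysed here, so a difference between the strains cannot be assigned to a gain in one or a loss in the other. The labels call the libraries triplicates without saying that they are separate cultures, so the p-values cover only the spread among the libraries fitted. That spread was estimated for each assay over 24 libraries of 8 strains, so it also draws on strains outside this comparison. Those were the strain with both deletions, mut-16 versions of the deletion strains, and prg-1 combined with either hrde-1 or ergo-1.

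In C. elegans, 22G-RNAs are short antisense RNAs that RNA-dependent RNA polymerases make on target transcripts, and worm-specific Argonautes load them to silence those targets. MUT-16 is the scaffold of the Mutator foci in which many of them are made. ERGO-1 is an Argonaute that binds primary 26G-RNAs made by the ERI complex, and 22G-RNAs are then made on its targets. The eri-6 and eri-7 genes together encode a helicase that the ERGO-1 pathway needs, and sosi-1 lies next to them. The comparison asks how animals that lack sosi-1 differ from animals that lack the eri-6[e-f] sequence.

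Total counts per library ranged from 11763085 to 23442936 for small RNA and from 13217989 to 26343852 for mRNA. Within a strain, library levels correlated with a Pearson r across features of at least 0.995 for small RNA. For mRNA the lowest r was 0.966 among eri-6[e-f] libraries and 0.987 among sosi-1 libraries. The mRNA libraries also differed between the strains in ribosomal RNA and in a trend with gene span, which are given with the mRNA results. The vitellogenin mRNAs, which encode yolk proteins made by the adult hermaphrodite intestine, were abundant in all 6 mRNA libraries. They summed to 103500.5, 108232 and 76341 CPM in eri-6[e-f] and to 71965, 57773 and 57734 CPM in sosi-1, without overlap. As a percentage of counts they overlapped, at 9.015, 7.463 and 7.166 in eri-6[e-f] and 8.274, 5.955 and 5.908 in sosi-1. Levels are CPM throughout, that is, counts relative to a library total scaled by trimmed mean of M values (TMM). A feature was called when edgeR's quasi-likelihood test gave a Benjamini-Hochberg adjusted p below 0.05 and the change was at least 2-fold. Log2 fold changes are sosi-1 over eri-6[e-f], with their standard error (SE). The levels of the 2 strains did not overlap at 49.5% of mRNA features and 35.6% of small RNA features.

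The 2 deletions gave opposite small RNA levels at the locus. Small RNAs assigned to sosi-1 stood at 694, 698 and 708 CPM in the 3 eri-6[e-f] libraries and at 0.0833, 0.0756 and 0.248 CPM in the 3 sosi-1 libraries. The groups did not overlap, and the log2 fold change of sosi-1 was -12.17 ± 0.33 SE (edgeR's quasi-likelihood test, adjusted p = 1.12e-16). This is the targeted gene, so the near absence of its small RNAs checks the label of the sosi-1 libraries. The strain with both deletions had 0.759, 1.30 and 0.393 CPM at sosi-1.

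The deposited files replace eri-6 and eri-7 with 2 entries named eri6.1 and eri.67, and no source used here says what these entries span. The eri6.1 entry had 77.6, 55.8 and 41.4 CPM of small RNA in eri-6[e-f] and 3681, 3583 and 3416 CPM in sosi-1. Every sosi-1 library was above every eri-6[e-f] library, and the log2 fold change of eri6.1 was 5.93 ± 1.35 SE (edgeR's quasi-likelihood test, adjusted p = 0.00327). The large SE depended on a library of another strain in the shared fit: without the prg-1; hrde-1 small RNA library 1 the SE was 0.38 at a log2 fold change of 5.94. DESeq2 gave eri6.1 small RNA no adjusted p. The eri.67 entry had 111, 110 and 110 CPM in eri-6[e-f] and 258, 244 and 234 CPM in sosi-1. Small RNAs of eri.67 rose by a log2 fold change of 1.16 ± 0.07 SE with no overlap (edgeR's quasi-likelihood test, adjusted p = 3.51e-10). The strain with both deletions was low at both entries, at 87.4, 64.6 and 66.9 CPM for eri6.1 and 76.0, 68.3 and 71.2 CPM for eri.67. Whether the eri-6[e-f] deletion removes sequence that is counted in eri6.1 was not tested.

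The mRNA assay showed the same direction at eri6.1 and little signal at sosi-1. The eri6.1 mRNA was at 0.196, 0.1 and 0.0806 CPM in eri-6[e-f] and at 2.11, 2.6 and 2.30 CPM in sosi-1. These groups did not overlap, and the log2 fold change of eri6.1 mRNA was 4.10 ± 0.34 SE (edgeR's quasi-likelihood test, adjusted p = 5.36e-08). Reads of sosi-1 mRNA were too few for a fold: the eri-6[e-f] libraries held 2, 0 and 3 counts and each sosi-1 library 0, so these counts check no label. The eri.67 mRNA was at 51.2, 34.2 and 37.2 CPM in eri-6[e-f] and at 34.4, 25.8 and 41.6 CPM in sosi-1. These ranges overlapped and eri.67 mRNA was not called, with a log2 fold change of -0.27 ± 0.22 SE that turned to 0.08 when libraries were scaled by size only. Among 20 protein-coding neighbours of the locus in annotation order, none of the 13 tested in small RNA was called by edgeR or DESeq2, and 4 had an unadjusted p below 0.05. Over all small RNA features, 7.45% were called in either direction. In mRNA, 4 of the 14 tested neighbours were called higher, tiam-1, C41D11.3, bet-1 and Y119C1B.3, and 2 lower, C41D11.9 and cmt-1; these were named after their values were seen. These are 28.6% and 14.3% of the neighbours tested, near the 20.2% called higher and 13.3% called lower over all mRNA features.

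**Figure D1:**
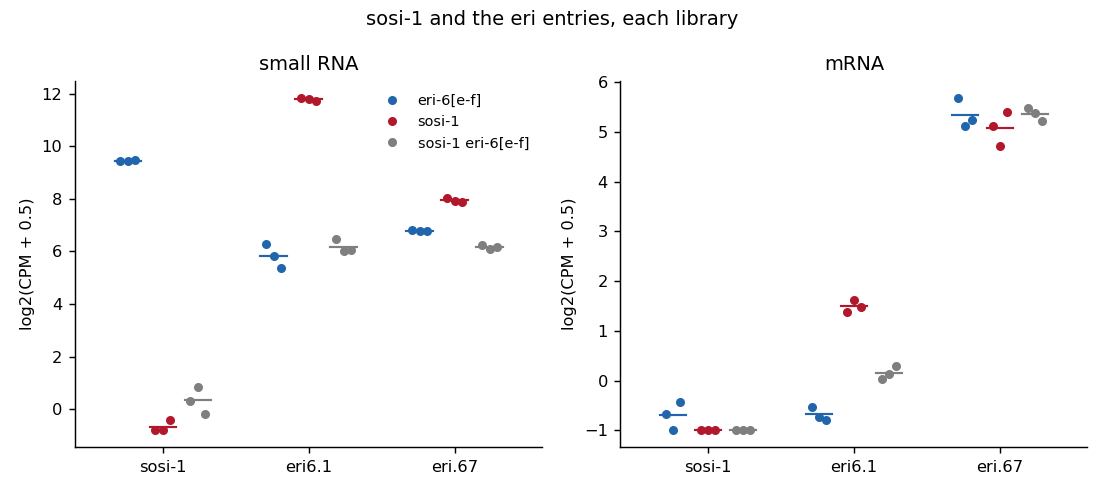
Levels of sosi-1, eri6.1 and eri.67 in each library as log2(CPM + 0.5), small RNA at left and mRNA at right. Each point is 1 library and each bar the mean of 3 libraries; in small RNA the sosi-1 strain is low at sosi-1 and high at eri6.1, and the eri-6[e-f] strain is the reverse.

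Over all small RNA features, 1056 of 15380 tested were called higher in sosi-1 (6.87%) and 90 lower (0.585%), or 7.45% in either direction. The higher calls were mostly features with few small RNAs: 905 of the 1056 had a mean below 3 CPM over the 6 libraries, and their median level was 1.12 CPM. At a mean of at least 10 CPM, 48 features were higher and 44 lower, of 7100 tested. The lower calls held more abundant features, with a median level of 9.03 CPM.

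**Figure D2:**
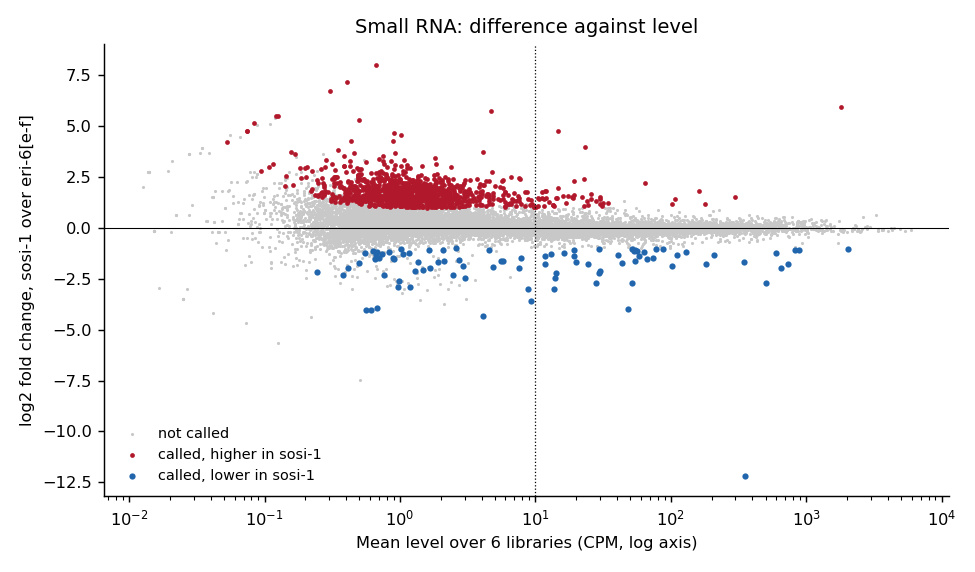
Small RNA log2 fold change of sosi-1 over eri-6[e-f] against the mean level over 6 libraries in CPM on a log axis, 1 point per feature tested. Features called higher gather at low levels, while to the right of the dotted line at 10 CPM there are 48 higher and 44 lower; the lowest point is sosi-1 itself.

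Small RNAs of several ERGO-1 targets were lower in sosi-1 than in eri-6[e-f]. The list of these targets was compiled from memory and is not exhaustive. Of its 31 tested members 7 fell (22.6%, beside 0.585% of all features) and none rose (beside 6.87%). The list median log2 fold change was -0.43 beside 0.01 over all features tested. With the gene span trend removed, 6 fell and 1 rose. The levels of the list summed to 15589, 15454 and 14937 CPM in eri-6[e-f] and to 9470, 10296 and 10730 CPM in sosi-1, with no overlap. As a share of counts, this difference had an exact two-sided permutation p of 0.1, the smallest that 3 against 3 libraries can give, and 0.211 after adjustment over 40 lists. In the strain with both deletions the sum averaged 10840 CPM.

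E01G4.5, a protein-coding gene, had 1099, 1200 and 1128 CPM of small RNA in eri-6[e-f] and 272, 378 and 345 CPM in sosi-1. Its small RNAs fell by 1.79 ± 0.11 SE on the log2 scale (edgeR's quasi-likelihood test, adjusted p = 3.25e-10). Its mRNA moved the other way, from 2.81, 4.10 and 3.39 CPM in eri-6[e-f] to 7.39, 7.67 and 7.33 CPM in sosi-1, a log2 fold change of 1.13 ± 0.23 SE. Neither assay showed overlap between the strains at E01G4.5.

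The pseudogene W04B5.2 had 1051, 1044 and 1032 CPM of small RNA in eri-6[e-f] and 209, 258 and 322 CPM in sosi-1. Small RNAs of W04B5.2 fell by 1.99 ± 0.13 SE on the log2 scale. The mRNA of W04B5.2 was lower too, at 4.64, 3.8 and 1.93 CPM in eri-6[e-f] and 1.91, 0.969 and 1.12 CPM in sosi-1. That mRNA call (log2 fold change -1.36 ± 0.34 SE) was lost with library-size scaling, at -0.97, and with the gene span trend removed, at -0.90. F39F10.4 was also lower in both assays, with small RNAs at -1.33 ± 0.09 SE and mRNA at -1.89 ± 0.48 SE. Small RNAs of the pseudogene T08B6.2 went from 56.6, 47.7 and 41.7 CPM to 6.87, 9.75 and 14.5 CPM, a log2 fold change of -2.23 ± 0.19 SE. Its mRNA gave 2 to 8 counts per library and was not called. The remaining 3 members called were W04B5.1 (-1.07), K02E2.6 (-1.06) and E01G4.7 (-1.25), named here because their calls were seen.

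**Figure D3:**
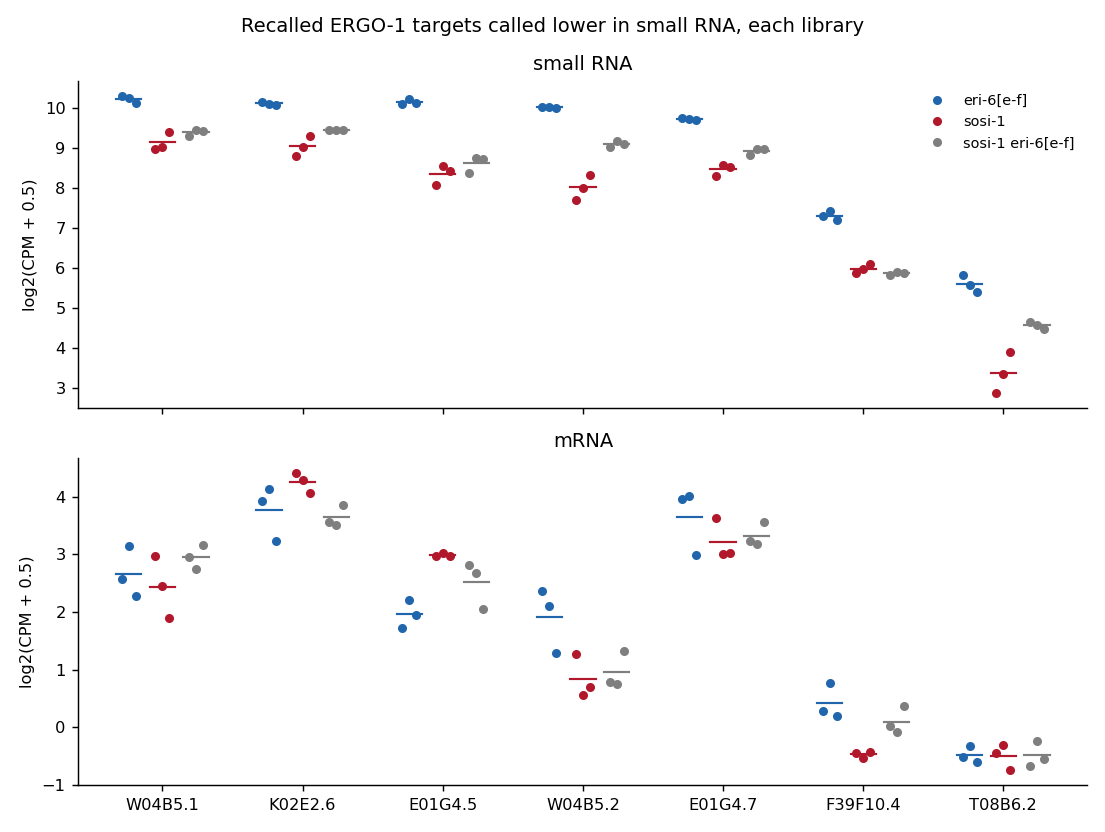
The 7 recalled ERGO-1 targets called lower in small RNA, as log2(CPM + 0.5) in each library, with small RNA above and mRNA below and a bar at each mean of 3 libraries. All 7 have sosi-1 libraries below eri-6[e-f] libraries in small RNA, while in mRNA E01G4.5 is higher in sosi-1, W04B5.2 and F39F10.4 are lower and the other 4 were not called.

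Other features with lower small RNAs lay outside that list. ZK384.7, a noncoding RNA gene, had 94.3, 90.4 and 87.8 CPM in eri-6[e-f] and 4.21, 7.40 and 5.96 CPM in sosi-1, a log2 fold change of -3.99 ± 0.16 SE. Y17D7B.4, one of the recalled targets of WAGO Argonautes and HRDE-1, had 898, 863 and 840.5 CPM against 94.1, 148 and 164 CPM, a log2 fold change of -2.68 ± 0.17 SE. The small GTPase gene arl-13 had 86.1, 89.7 and 91.9 CPM against 14.6, 11.71 and 14.6 CPM, a log2 fold change of -2.70 ± 0.14 SE. None of these 3 features overlapped between the strains. The strain with both deletions averaged 56.3 CPM at ZK384.7 and 500 CPM at Y17D7B.4, between the single deletions, and 14.5 CPM at arl-13, near the sosi-1 level. T05G5.4 and F36A2.3 fell by 1.87 ± 0.09 SE and 1.79 ± 0.10 SE, and there the strain with both deletions averaged 6.65 and 35.9 CPM, below the 44.1 and 80.9 CPM of sosi-1. Of 49 tested long intergenic noncoding RNA genes, none rose and 4 fell (8.16%, beside 0.585% of all features), among them linc-8 at -1.73 ± 0.14 SE. F-box genes, a large family of ubiquitin ligase adaptors, were called higher in 6 and lower in 6 of 309 cases, 1.94% each, beside 6.87% higher and 0.585% lower over all features.

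Features with higher small RNAs in sosi-1 included genes near 1 to 3 CPM in eri-6[e-f]. W01C9.2 had 1.09, 1.15 and 0.883 CPM in eri-6[e-f] and 25.98, 21.4 and 37.98 CPM in sosi-1, a log2 fold change of 4.75 ± 0.33 SE. The early embryo gene sdz-19 had 3.27, 2.70 and 2.09 CPM against 42.1, 46.5 and 42.4 CPM, a log2 fold change of 4.00 ± 0.44 SE. Both stayed low in the strain with both deletions, at means of 0.875 CPM for W01C9.2 and 2.33 CPM for sdz-19. From higher levels, F36H9.5, B0344.4 and the nuclear hormone receptor gene nhr-229 rose by 2.21 ± 0.36 SE, 1.82 ± 0.34 SE and 1.43 ± 0.28 SE. They averaged 22.7, 71.6 and 58.5 CPM in eri-6[e-f] and 105.5, 253 and 157.6 CPM in sosi-1.

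Small RNAs of sperm genes were called higher in sosi-1 from low levels. Higher calls were more frequent at such levels: 14.1% of features tested at a mean below 3 CPM, and 18.3% at 1 to 3 CPM. Among major sperm protein genes, which encode the cytoskeletal protein that drives sperm crawling, 14 of 32 tested rose (43.8%, beside 6.87% of all features). None of them fell, and the median log2 fold change was 1.34. Their levels summed to between 17.5 and 18.9 CPM in eri-6[e-f] and between 31.8 and 46.5 CPM in sosi-1. Among other spermatogenesis genes 48 of 80 rose (60%) and none fell, with a median of 1.56. The sum of these genes lay between 523 and 531 CPM for eri-6[e-f] and between 618 and 649 CPM for sosi-1. For example, gsp-3, a sperm-specific protein phosphatase gene, had 0.297, 0.200 and 0.321 CPM against 2.04, 2.34 and 1.95 CPM. The sperm Argonaute genes alg-3 and alg-4 rose by 2.06 ± 0.17 SE and 2.40 ± 0.23 SE from about 1 CPM. Neither edgeR nor DESeq2 called a small RNA change in 5 lists: 20 P granule genes, 16 nuclear RNAi genes, 20 Mutator and 22G-RNA amplification genes, 38 genes of germline proliferation and meiosis, and 37 oocyte and eggshell genes. Of their 129 different members 61 had an unadjusted p below 0.05, and the list medians lay between -0.05 and 0.22. Over all small RNA features 6.87% were called higher and 0.585% lower. At a mean of at least 10 CPM these shares were 0.676% and 0.62%, so an absence of calls is close to the share at such levels. The major sperm protein genes are near-identical copies, so the split of reads among them is uncertain.

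The mRNA libraries of the strains differed more widely. Of 15376 features tested, 3113 were called higher in sosi-1 (20.2%) and 2049 lower (13.3%), or 33.6% in either direction. Leaving out eri-6[e-f] library 2 lowered the lower calls to 1237, and scaling by library size only gave 4435 higher and 750 lower, as it moved the median of all features by 0.35. Under that scaling 85.5% of the calls were higher, against 60.3% here. In whole animals, fewer cells of a type and less RNA per cell cannot be told apart.

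The mRNA difference followed the annotated span of the gene, introns included. Among features at a mean of at least 10 CPM, the shortest sixth had a median log2 fold change of -1.02 and the longest sixth 0.90, with -0.48, -0.13, 0.24 and 0.60 between them. All 3 sosi-1 libraries rose steadily with span relative to the eri-6[e-f] mean, from between -1.08 and -0.91 in the shortest sixth to between 0.88 and 0.96 in the longest. Ribosomal RNA entries, which oligo(dT) selection should deplete, summed to 53684, 94646 and 64284 CPM in eri-6[e-f] and 11436, 17509 and 13084 CPM in sosi-1. Their part in the mRNA results was not tested. With the span trend removed, 2116 features were higher and 1591 lower; 1780 of the higher and 797 of the lower calls were shared with the fit as designed, and none changed direction.

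**Figure D4:**
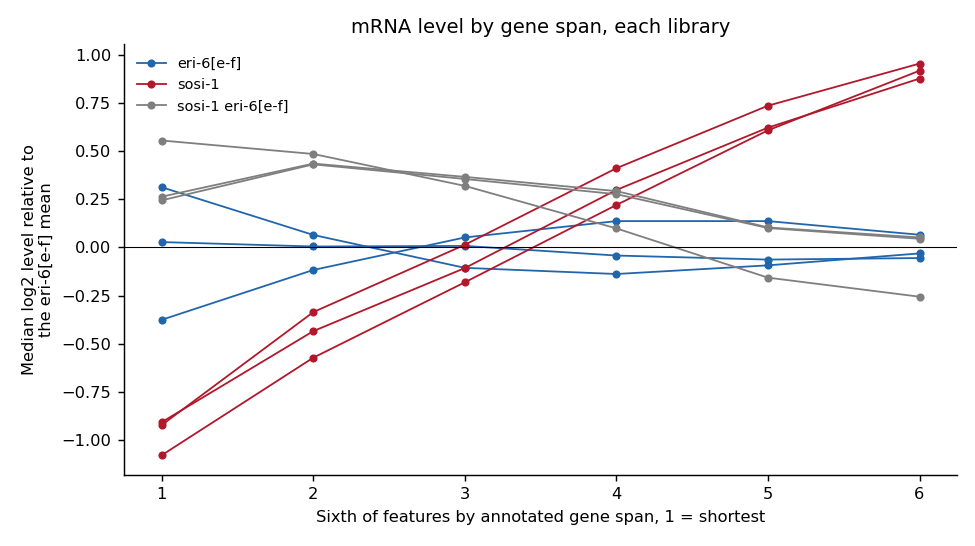
Median log2 mRNA level relative to the eri-6[e-f] mean for each library, over 6 equal classes of features ordered by gene span, at a mean of at least 10 CPM. The 3 sosi-1 libraries climb from near -1 to near 0.9, and the libraries of the other strains lie within 0.6 of 0.

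Many Argonaute genes had more mRNA in sosi-1. Among Argonaute genes 18 of 24 tested rose (75%, beside 20.2% of all features) and none fell. Their median log2 fold change was 1.54 beside 0.04 over all features. With the span trend removed 10 rose (41.7%, beside 13.8%), at a median of 0.95. The ergo-1 mRNA was at 57.2, 54.2 and 58.1 CPM in eri-6[e-f] and at 210, 219 and 269 CPM in sosi-1. Its log2 fold change was 2.04 ± 0.32 SE (edgeR's quasi-likelihood test, adjusted p = 2.91e-05), and 1.23 with the span trend removed. The germline nuclear Argonaute gene hrde-1 had 104.2, 104.5 and 127.7 CPM against 453, 542 and 671 CPM, a log2 fold change of 2.31 ± 0.34 SE. The Piwi gene prg-1 rose by 1.57 ± 0.26 SE. None of these 3 genes overlapped between the strains.

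In the ERI complex and 26G-RNA list 6 of 14 rose (42.9%, beside 20.2% of all features) and 1 fell (7.14%, beside 13.3%). With the span trend removed 5 rose (35.7%, beside 13.8%) and none fell. The member that fell was gtsf-1, whose protein is a partner of the ERI complex, at -1.69 ± 0.23 SE, and -0.87 with the trend removed. In the Mutator list 8 of 20 rose, and 3 with the trend removed (15%, beside 13.8% of all features in that fit). The mut-16 mRNA itself was at 28.6, 27.02 and 30.2 CPM against 67.7, 60.7 and 68.4 CPM, called at a log2 fold change of 1.2 ± 0.31 SE and not called with the trend removed, at 0.51. Small RNAs of mut-16 did not pass the test (0.04 ± 0.05 SE), nor did those of ergo-1 (-0.13 ± 0.06 SE). In the strain with both deletions ergo-1 mRNA averaged 65.5 CPM and hrde-1 mRNA 154 CPM, closer to eri-6[e-f] than to sosi-1; that difference was not tested.

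Germline lists were higher in mRNA, where 20.2% of all features were called higher and 13.3% lower. Among oocyte and eggshell genes 26 of 36 rose and none fell, with a median of 1.66, and 25 rose with the span trend removed. The eggshell proteoglycan gene cpg-1 had 289, 255 and 267 CPM in eri-6[e-f] and 1405, 1753 and 2406 CPM in sosi-1, a log2 fold change of 2.78 ± 0.33 SE. Of P granule genes 17 of 20 rose and none fell, while 15 rose and 1 fell with the trend removed; the rises were led by meg-2, meg-1 and meg-3 at 2.75 ± 0.39, 2.70 ± 0.35 and 2.67 ± 0.36 SE. Germline proliferation and meiosis genes rose in 17 of 38 cases and fell in 1, htp-2, and 9 rose with the trend removed (23.7%, beside 13.8% of all features in that fit). The htp-2 call (-1.04 ± 0.19 SE) was lost at -0.68 with library-size scaling, at -0.90 with the 6 libraries alone or without sosi-1 library 1, at -0.99 without eri-6[e-f] library 2 and at -0.66 with the trend removed. The translational repressor gene gld-1 was at 213, 228 and 238 CPM against 625, 898 and 1128 CPM.

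Sperm gene mRNAs were at low level in both strains and higher in sosi-1. Their call counts stand beside 20.2% of all mRNA features called higher, or 13.8% with the span trend removed. Of major sperm protein genes 30 of 33 rose and none fell, with a median of 1.99, and 32 rose with the trend removed. Their summed level was 98.1, 84.3 and 39 CPM in eri-6[e-f] and 240, 308 and 229 CPM in sosi-1, without overlap. Of other spermatogenesis genes 48 of 82 rose and 2 fell, with a median of 1.27, or 1.19 when the 4 members at 0 in 1 group are set to a floor of 3 counts over that group. With the trend removed 49 rose and none fell.

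Cuticle collagens were called in both directions, 66.2% higher and 12% lower, beside 20.2% and 13.3% of all mRNA features. Of 142 tested, 94 rose and 17 fell, with a median log2 fold change of 2.52, and 95 rose and 4 fell with the span trend removed. The summed level did not follow the count: it was 32903, 61067 and 23110 CPM in eri-6[e-f] and 18962, 24106 and 18120 CPM in sosi-1, and these ranges overlapped. The collagen gene col-17 was at 1.11, 1.10 and 0.161 CPM in eri-6[e-f] and at 22.2, 58.0 and 19.3 CPM in sosi-1, a log2 fold change of 5.38 ± 0.58 SE. The abundant collagen gene col-140 was at 3327, 7409 and 2278 CPM against 1398, 1413 and 1299 CPM; its log2 fold change of -1.66 ± 0.30 SE was called, and -0.96 with the trend removed was not. Over all mRNA features, not only collagens, the largest called increase without overlap at a mean of at least 10 CPM was at E01G4.6. Its mRNA was at 0.915, 1.30 and 0.967 CPM against 35.1, 75.5 and 23.6 CPM, a log2 fold change of 5.42 ± 0.41 SE.

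Muscle, intestine, ribosomal protein and histone lists had more lower than higher calls, and the neuron list did not. Over all mRNA features, 20.2% were called higher and 13.3% lower, or 13.8% and 10.3% with the span trend removed. Neuron genes rose in 6 of 21 cases (28.6%) and fell in 1 (4.76%), with a median of 0.37. With the span trend removed none rose and 1 fell, at a median of -0.15. Muscle genes fell in 10 of 24 cases and none rose, with a median of -0.67; with the trend removed 9 fell and 1 rose. The body wall myosin gene unc-54 had 2096, 2616 and 1908 CPM in eri-6[e-f] and 829, 417 and 242 CPM in sosi-1, a log2 fold change of -2.15 ± 0.37 SE. Intestine genes fell in 9 of 20 cases, with a median of -1.0, and in 5 with the trend removed. None of the 6 vitellogenin genes was called by edgeR or DESeq2, at a median of -0.64, although 5 had an unadjusted p below 0.05, while all 6 were called lower with the trend removed, at -1.33. Ribosomal protein genes fell in 24 of 76 cases and rose in 1, and histone genes fell in 28 of 64 and rose in 2. With the span trend removed, ribosomal protein genes had a median of 0.01 in place of -0.75 and none fell, and histone genes had -0.11 in place of -0.87, with 7 higher and 2 lower. Both families are made of short genes, with median spans of 755 and 384 bases. The recalled ERGO-1 targets had 3 mRNAs higher (10.3%) and 6 lower (20.7%) of 29, with a median of -0.47. With the trend removed 10.3% were called in each direction, at a median of 0.

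**Figure D5:**
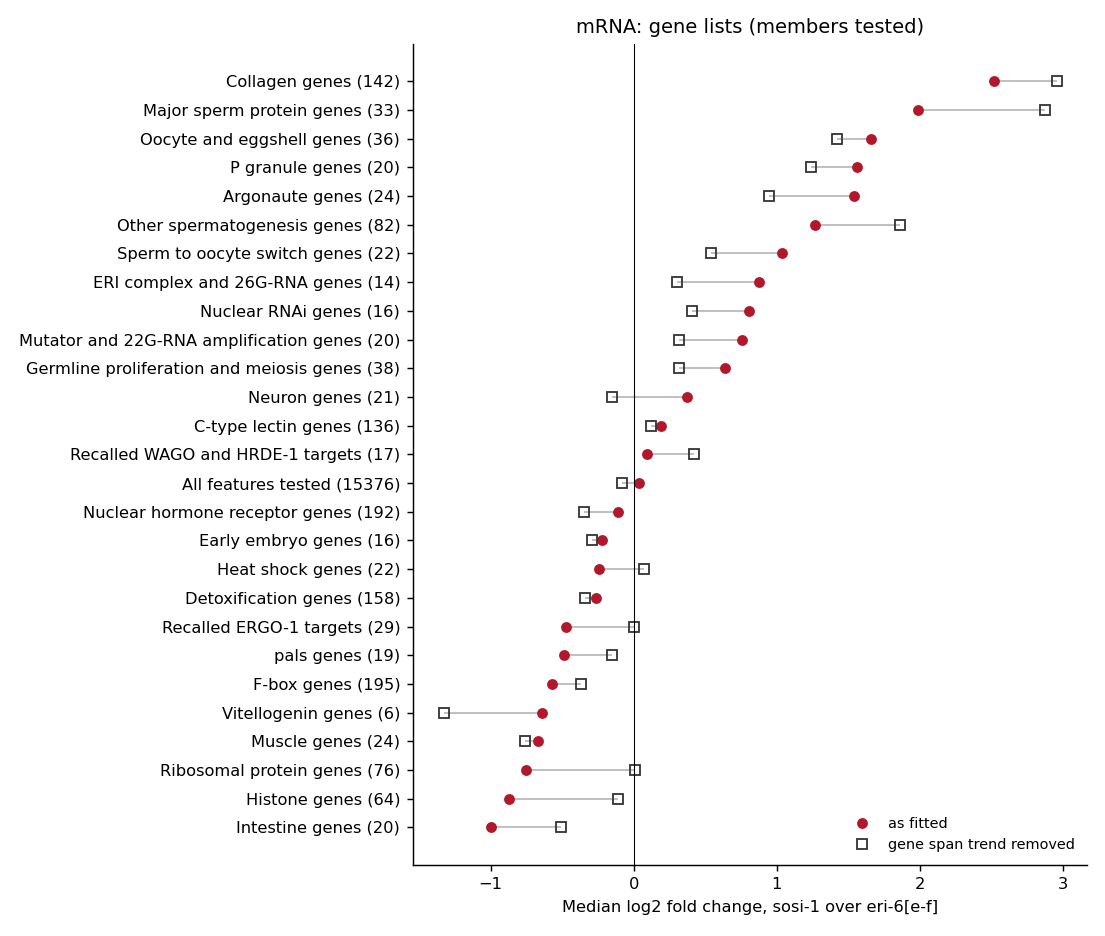
Median mRNA log2 fold change of sosi-1 over eri-6[e-f] for gene lists with at least 5 members tested and for all features tested. Families added after their values were seen are left out. Filled circles are as fitted, open squares have the gene span trend removed, and the number of members is in parentheses. Collagens, sperm, oocyte and P granule genes stay above 1 in both fits, and the ribosomal protein and histone lists move to near 0.

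Features called in both assays were counted among the 12920 tested in both. Of 930 features with higher small RNAs, 487 also had higher mRNA (52.4%, beside 21.2% of all these features), which were 17.74% of the features with higher mRNA. Another 17 of the 930 had lower mRNA (1.8%, beside 12% of all these features). At a mean of at least 10 CPM in each assay, 1 feature was higher in both, and 0 had higher small RNA and lower mRNA. Of 64 features with lower small RNAs, 10 had higher mRNA (15.6%, beside 21.2% of all features) and 17 lower mRNA (26.6%, beside 12%). Across features, the log2 fold changes of the assays had a Pearson r of 0.32 and a Spearman rho of 0.24, a description in which genes are not independent replicates.

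ZK384.7 and F52D2.12 had lower small RNAs and higher mRNA. The ZK384.7 transcript was at 2.81, 2.6 and 0.967 CPM in eri-6[e-f] and 7.43, 5.89 and 5.18 CPM in sosi-1, a log2 fold change of 1.53 ± 0.29 SE. F52D2.12 mRNA was at 3.73, 3.00 and 3.14 CPM against 8.85, 10.42 and 10.7 CPM, with small RNAs at a log2 fold change of -1.17 ± 0.07 SE. Lower in both assays were T05G5.4, Y44E3A.1 and F36A2.3, whose mRNAs had log2 fold changes of -1.43 ± 0.30, -1.49 ± 0.31 and -1.17 ± 0.21 SE. The T05G5.4 mRNA call was lost with the trend removed, at -0.63, and that of F36A2.3 without eri-6[e-f] library 2, at -0.88, and with library-size scaling, at -0.76. The Golgi complex gene cogc-3 was higher in both, with small RNAs at 1.5 ± 0.21 SE and mRNA at 1.42 ± 0.31 SE, or 0.60 and not called with the trend removed.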

How the data were processed

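The deposited files of the authors give expected counts (estimated counts of reads per gene name, not normalized) for each library. Per the submitters' processing notes, HISAT2, Salmon and cutadapt were used; no source used here gives their versions or roles, the genome build, the annotation or whether strand was counted, so reads of overlapping or antisense genes cannot be told apart. The 48 libraries of the 8 strains grown alike entered the fits. Entries repeating a name were summed; of 46003 names, 45682 matched the RefSeq table and 321 did not. Counts were rounded, filtered with filterByExpr by strain and scaled by TMM, and a quasi-likelihood model of strain was fitted to the 24 libraries of each assay (R 4.3.3, edgeR 4.0.16); the script was tested on simulated data. Calls need an adjusted p below 0.05 over all features and a 2-fold change. Shares of counts per list were compared by exact permutation test. No replicate pair agreed within sampling noise. The gene span trend was removed with a spline (4 degrees of freedom) per library, an alternative chosen after seeing the data, as were the fit without the prg-1; hrde-1 library and the limit of 10 CPM.

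The members and lists were chosen with earlier results of these data known, and the lists were compiled from memory and name patterns. Named genes are the locus, Argonaute and ERI genes; the 12 largest and 12 smallest called changes per assay at a mean of at least 10 CPM without overlap; up to 4 called members per list and direction; and up to 6 per combination of directions called in both assays, with mean levels of at least 10 CPM (small RNA) and 1 CPM (mRNA). Alternatives were DESeq2 1.42.0, RLE or library-size scaling, no filter, the 6 libraries alone, a replicate block, and each library left out. Depth was 11763085 to 26343852 counts in the 12 libraries compared, and 8002988 to 93976553 over all 48 in the fits.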

Additional observations from a re-analysis of the deposited data

How the results depend on the processing

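No call of a named gene reversed direction under the alternatives. For small RNA, the higher calls ranged from 907 to 1130 and the lower from 66 to 90 with each library left out in turn; the lower calls were 151 without a filter, and at a mean of at least 10 CPM the calls were 48 higher and 44 lower. For mRNA, leaving out a library gave 2832 to 3534 higher and 1237 to 2725 lower, the lowest without eri-6[e-f] library 2; the lower calls were 750 with library-size scaling and 1293 with the 6 libraries alone, and at 10 CPM there were 1497 higher and 1119 lower. Features higher in both assays ranged from 370 to 458 with a library left out, were 244 with the 6 libraries alone and 1 at 10 CPM in each assay. Features with higher small RNA and lower mRNA ranged from 8 to 32, with 3 under library-size scaling, 10 with the 6 libraries alone and 0 at 10 CPM. Features with lower small RNA and higher mRNA ranged from 6 to 9, with 0 at 10 CPM. Features lower in both ranged from 8 to 25, with 9 under library-size scaling, 58 without a filter, 10 with the 6 libraries alone and 2 at 10 CPM. Fewer features or samples enter the 10 CPM and 6-library settings; the cause of the other shifts was not tested.

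Same-numbered libraries of the strains had deviations correlated at -0.03, -0.118 and -0.169 in small RNA and 0.307, 0.091 and 0.496 in mRNA. Differently numbered libraries ranged from -0.037 to 0.144 in small RNA and from -0.447 to 0.305 in mRNA. The small RNA values showed no pairing by number, whereas the same-numbered mRNA values were all positive. Whether replicate numbers pair the mRNA samples was not tested. With the replicate block, 1033 features were higher and 91 lower in small RNA, and 3136 and 2029 in mRNA. Of the named genes, 18 of 80 small RNA calls and 45 of 185 mRNA calls were lost in at least 1 fit without a library, and 54 mRNA calls with the gene span trend removed. Library-size scaling turned the mRNA medians of early embryo genes from -0.22 to 0.17, of heat shock genes from -0.24 to 0.13, of detoxification genes from -0.26 to 0.11 and of nuclear hormone receptor genes from -0.11 to 0.25.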

Other observations

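Further gene families, chosen after their values were seen and therefore given with no support, also differed in mRNA. Over all mRNA features 20.2% were called higher and 13.3% lower, or 13.8% and 10.3% with the gene span trend removed. Of 18 tested nspc genes, 17 were called lower in sosi-1, with a median log2 fold change of -1.95; their summed level was 751, 1230 and 528 CPM in eri-6[e-f] and 236, 192 and 182 CPM in sosi-1, and 9 were called lower with the gene span trend removed. Saposin-like spp genes, which encode antimicrobial proteins, fell in 15 of 22 cases, or 7 with the trend removed, and lysozyme genes fell in 9 of 13, or 7. Genes of FMRFamide-like neuropeptides fell in 16 of 30 cases, or 9 with the trend removed. Respiratory chain genes fell in 20 of 52 cases, or 8.

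Molting genes rose in 25 of 43 cases and none fell, and with the trend removed 19 rose and 3 fell; their summed level was 237, 211 and 244 CPM in eri-6[e-f] and 547, 634 and 515 CPM in sosi-1, and it averaged 237 CPM in the strain with both deletions. Hedgehog-related genes rose in 17 of 32 cases and fell in 1, or 22 and none with the trend removed. The MCM replication helicase genes rose in 6 of 7 cases, or 2 with the trend removed. In small RNA, none of the molting, hedgehog-related or MCM genes was called, beside 7.45% of all features called in either direction.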
